A study of Mus musculus with 28 samples.

Results

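The nuclear tRNA genes of the mouse were taken as the set of regions: all genes of biotype tRNA with a symbol beginning n-T on the assembled chromosomes of GRCm38, each extended by 1 kb on both sides. There were 403 of them among 49939 annotated genes. They lay on 19 chromosomes, were 70 to 107 bp long (median 72 bp) and covered 20 amino acids and 48 anticodons. In the symbol, the letter after n-T is the amino acid and the next 3 letters are the anticodon, so that n-TAagc16 is an alanine gene with the anticodon AGC (n-Tcgca44 was counted as cysteine). Genes with overlapping windows were merged into 267 loci, of which 187 held 1 gene and the largest held 6. Within 2 kb of 67 tRNA genes a protein-coding gene begins or ends, and the remaining 336 had no coding gene end so close. The median distance to a coding gene end was 11664 bp, and 34 tRNA genes lay inside a coding gene. The annotation used here gives gene ends but neither strand nor exons of the tRNA genes and their host genes.

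Transfer RNAs are the adaptors that carry amino acids to the ribosome. Their genes are read by RNA polymerase III, which is recruited by TFIIIC bound to an A box and a B box inside the gene and by TFIIIB placed upstream of it. Trimethylation of histone H3 at lysine 4 (H3K4me3) is a mark of active promoters, H3K27me3 is the mark left by Polycomb repressive complexes, and DNA methylation in a promoter usually accompanies silence. Copies of tRNA genes in yeast and mammals are also known to act as boundaries in chromatin, a property shared with Ctcf, a zinc finger protein that shapes chromosome loops. Smchd1 is a non-canonical SMC protein of the inactive X chromosome and of some autosomal gene clusters.

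The study profiled neural stem cells derived from E14.5 (embryonic) brain of male C57BL/6 x FVB/N mice, either Smchd1 wild-type or homozygous for the null allele (Smchd1MommeD1/MommeD1). The 28 libraries form 14 groups. They are Smchd1, H3K4me3 and H3K27me3 ChIP with 2 libraries in each genotype, MBD capture of methylated DNA with 3 in each genotype, and 1 whole cell extract of each genotype. Ctcf ChIP has 2 libraries in untransduced wild-type cells, 2 in wild-type cells with a non-silencing shRNA, 2 in Smchd1 null cells, and 1 for each of 2 Ctcf shRNAs in wild-type cells. From these come 11 lists of peak summits, each made by the authors from all libraries of a group against a control: Smchd1 ChIP in null cells for Smchd1, Ctcf ChIP in the Ctcf shRNA cells for Ctcf, and the extract for the others. A list therefore holds no value per replicate, no difference between lists could be tested, and the labels do not say whether replicate libraries came from separate embryos. Every score below is the one the authors deposited with a summit, on a −log10 scale of p- or q-values.

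List length sets how many genes can be reached. The H3K4me3 lists held 23449 (wild-type) and 24201 (null) summits, the Ctcf lists 8292 (untransduced), 20483 (non-silencing) and 11920 (null), and the H3K27me3 lists 732 and 77. Smchd1 had 407 summits at a threshold of 5e-4 and 1105 at 5e-3. For MBD the labels conflict, since null samples point to the list named WT and wild-type samples to the list named D1. Those lists, with 156188 summits (named WT) and 126631 (named D1), are therefore given by name with no genotype direction. As a check of cell type, an H3K4me3 summit lay within 2 kb of an end of 9 of 10 neural stem cell marker genes in the wild-type list and 8 in the null list, and of 4 of 5 neuron markers in both. Msi1 was unlisted in both and Pax6 in the null list. By the same rule 58.3% (wild-type) and 58.0% (null) of all protein-coding genes were listed. These counts do not separate stem cells from neurons. Of markers of other cells, both lists had 1 of 4 for endothelium (Kdr), 1 of 4 for mesenchyme (Col1a1), 0 of 4 for blood and microglia, 0 of 3 for astrocytes and 0 of 2 for muscle.

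Sequence of the tRNA genes themselves was not used here, but some reach into the 250 bases upstream of an annotated gene start for which RefSeq gives sequence on GRCm38.p6. The 3 printed first hold most or all of a tRNA gene: 1 next to a gene of the polymerase that reads it, 1 more with H3K4me3 and 1 without. The fourth holds Ctcf summits within 1 kb of a tRNA gene but closer to the start of Fmc1, and no base of that tRNA gene. They were chosen after their values were seen. Each is printed 5′ to 3′ on the strand of the coding gene. Capitals mark the part of the tRNA gene in the window, and in Fmc1 the stretch between the lowest and the highest Ctcf summit.
Polr3e with n-TLaag4: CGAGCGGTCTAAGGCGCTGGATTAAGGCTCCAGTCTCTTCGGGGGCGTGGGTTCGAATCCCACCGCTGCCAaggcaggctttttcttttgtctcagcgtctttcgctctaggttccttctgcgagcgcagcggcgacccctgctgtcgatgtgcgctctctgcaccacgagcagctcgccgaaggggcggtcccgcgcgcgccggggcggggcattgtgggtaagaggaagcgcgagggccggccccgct
Polg with n-TRtcg5: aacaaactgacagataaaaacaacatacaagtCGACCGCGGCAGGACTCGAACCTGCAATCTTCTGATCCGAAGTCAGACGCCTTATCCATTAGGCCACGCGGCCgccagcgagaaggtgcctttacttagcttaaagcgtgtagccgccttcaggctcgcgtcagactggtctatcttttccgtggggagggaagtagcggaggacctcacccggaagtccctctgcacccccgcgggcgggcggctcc
BC107364 with n-THgtg7: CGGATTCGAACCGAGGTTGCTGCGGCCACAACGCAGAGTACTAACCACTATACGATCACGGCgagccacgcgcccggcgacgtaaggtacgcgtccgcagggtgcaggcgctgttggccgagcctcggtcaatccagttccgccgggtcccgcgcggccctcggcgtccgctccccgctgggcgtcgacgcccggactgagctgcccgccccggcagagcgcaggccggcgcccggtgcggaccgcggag
Fmc1: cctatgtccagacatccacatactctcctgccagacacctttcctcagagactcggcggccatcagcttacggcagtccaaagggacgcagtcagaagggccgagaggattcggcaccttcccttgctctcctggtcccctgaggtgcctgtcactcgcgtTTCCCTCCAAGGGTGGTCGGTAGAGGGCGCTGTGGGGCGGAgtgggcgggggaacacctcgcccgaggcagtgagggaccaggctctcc

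The window of Polr3e, which codes for a subunit of RNA polymerase III, is chr7:120917528-120917777 on the plus strand and holds 71 of the 82 bases of n-TLaag4, a leucine tRNA gene. The window of Polg, the catalytic subunit of the mitochondrial DNA polymerase, is chr7:79466274-79466523 on the minus strand and holds all 73 bases of n-TRtcg5, an arginine tRNA gene. The window of BC107364 is chr3:96452307-96452556 on the minus strand and holds 62 of the 72 bases of n-THgtg7, a histidine tRNA gene. In the gene table n-TRtcg5 and n-THgtg7 lie inside Polg and BC107364, 1420 and 1795 bp from the nearer end, so these windows belong to starts inside the annotated spans. The window of Fmc1, which codes for a mitochondrial assembly factor, is chr6:38534611-38534860 on the plus strand, with Ctcf summits at 38534772 (untransduced), 38534811 (non-silencing) and 38534812 (null), 41 bases from first to last.

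A B box core, searched as GGTTCGA on both strands, was found in the capitals of Polr3e on the printed strand and in those of Polg and BC107364 on the opposite strand. The same 7 letters occurred in 0.758% of 32851 RefSeq promoters of 300 bases. An A box core, searched as GCNNAGNGG, occurred in 20.9% of those promoters and in the capitals of none of these 3 windows. The Polr3e window begins inside its tRNA gene, so part of that gene was not searched. Only exact matches to the pattern were counted, so a missing match does not show that a box is absent. The windows of Polr3e and BC107364 held 29 and 41 CpG dinucleotides. Both n-TLaag4 and n-TRtcg5 had H3K4me3 in both genotypes, and n-THgtg7 did not. The highest score within 1 kb was 38.0 (wild-type) and 34.7 (null) at n-TLaag4 and 35.8 and 39.4 at n-TRtcg5, and n-THgtg7 had no summit of any list. The scores of 38.0 and 34.7 were also the highest within 2 kb of an end of Polr3e. The H3K4me3 summits nearest to n-TLaag4 had 8.45 (wild-type) and 12.3 (null), and those nearest to n-TRtcg5 had 16.1 and 39.4.

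H3K4me3 was the mark most often found at tRNA genes. In wild-type cells 236 of the 403 genes, 58.6% (exact 95% Clopper-Pearson interval 53.6 to 63.4), had an H3K4me3 summit within 1 kb, and in null cells 231, 57.3% (52.3 to 62.2). These intervals cover counting error only and treat genes as separate, although neighbours share summits. Of all 49536 other annotated genes, many of them far longer, 33.6% had a summit in the wild-type list and 33.5% in the null list. Of the 4455 other genes of at most 200 bp, which have windows of like length, 5.59% and 5.61% did, so that the share at tRNA genes was 10.5 and 10.2 times that of short genes. Among short genes, 11.2% of miRNA, 4.68% of snoRNA and 3.81% of snRNA genes had a wild-type summit. Of 69 5S rRNA genes, which RNA polymerase III also reads, the wild-type list reached 1 and the null list 0, and a count of 0 in 69 allows up to 4.35%.

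**Figure D1:**
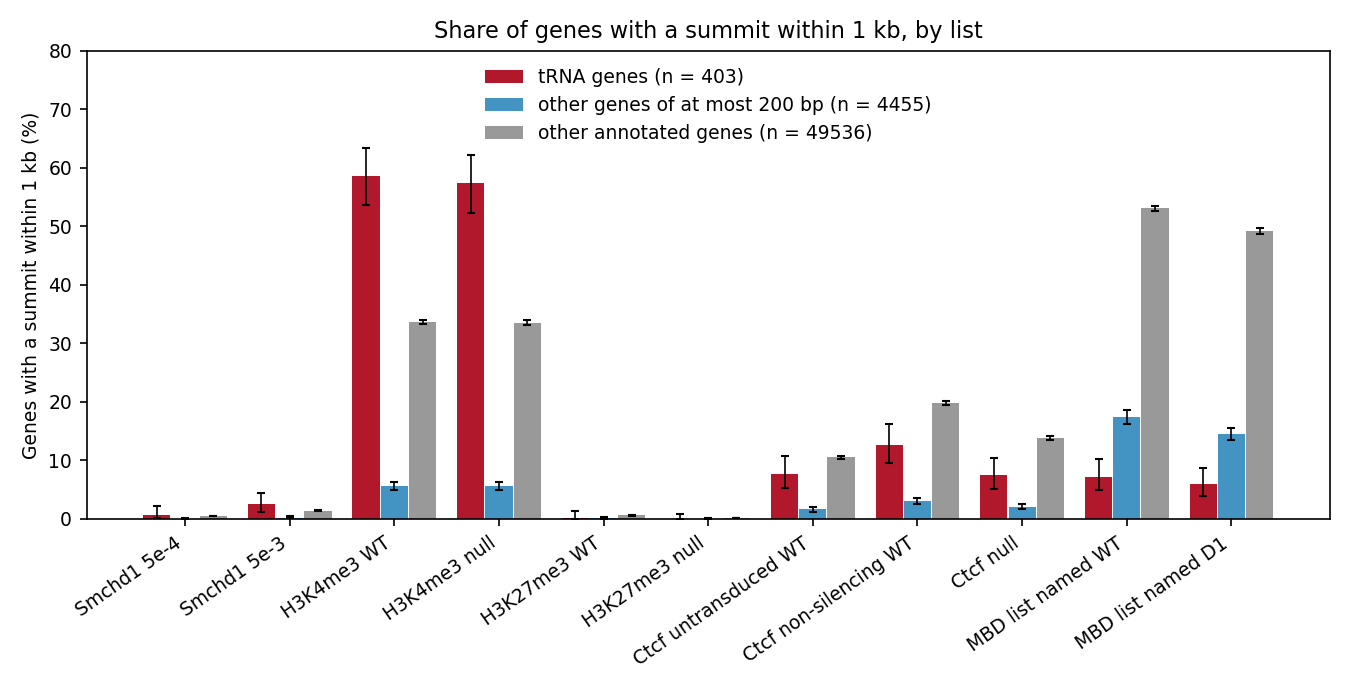
Share of genes (%, vertical axis) with at least 1 summit within 1 kb in each of the 11 lists for tRNA genes, other genes of at most 200 bp and all other annotated genes, with exact 95% binomial intervals. The tRNA bars stand far above short genes for H3K4me3 (58.6% against 5.59% in wild-type) and below them for MBD (7.20% against 17.4% in the list named WT).

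Most of these summits were not close to a coding gene end. Among the 336 tRNA genes without a coding gene end within 2 kb, 174 (51.8%) had H3K4me3 in wild-type and 172 (51.2%) in null cells. Short genes of the same kind had it in 89 of 3921 (2.27%) in the wild-type list, a ratio of 22.8. Near coding genes both sets were higher, with 62 of 67 tRNA genes (92.5%) and 160 of 534 short genes (30.0%) in wild-type cells. In null cells the count near coding genes was 59 of 67 (88.1%). The nearest H3K4me3 summit was closer to the tRNA gene than to any coding gene end for 219 of the 236 genes in wild-type and 215 of 231 in null cells. For the 174 and 172 genes without a coding gene end within 2 kb, the window of 1 kb fixes this outcome. Among those with one, the summit was at least as near to the coding gene end for 17 of 62 (wild-type) and 16 of 59 (null). The nearest summit lay over 5 kb from every coding gene end for 142 (60.2%) and 141 (61.0%). Of the 34 tRNA genes inside a coding gene, 16 had a wild-type summit.

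The summits lay beside the gene and not on it. The median distance of the nearest wild-type summit was 199 bp (quartiles 159 and 352.5 bp), and 113 of 236 genes had it between 100 and 200 bp away. Only 7 genes had it at 1 to 99 bp, and 0 had it inside the gene. The null list gave the same picture, with a median of 191 bp, 116 of 231 genes between 100 and 200 bp, 6 at 1 to 99 bp and 0 inside. Around short genes, wild-type summits were inside 20 of 249 genes and at 1 to 99 bp from 39, with a median of 306 bp. A tRNA gene could be flanked: 95 genes had summits on both sides in wild-type and 108 in null cells. A summit between neighbouring tRNA genes counts for each of them, and genes alone in their locus were not counted apart. Genes of a tRNA family are near copies of each other, and the sources used here do not say how reads matching several copies were counted. Its part in the gap over the gene was not tested.

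**Figure D2:**
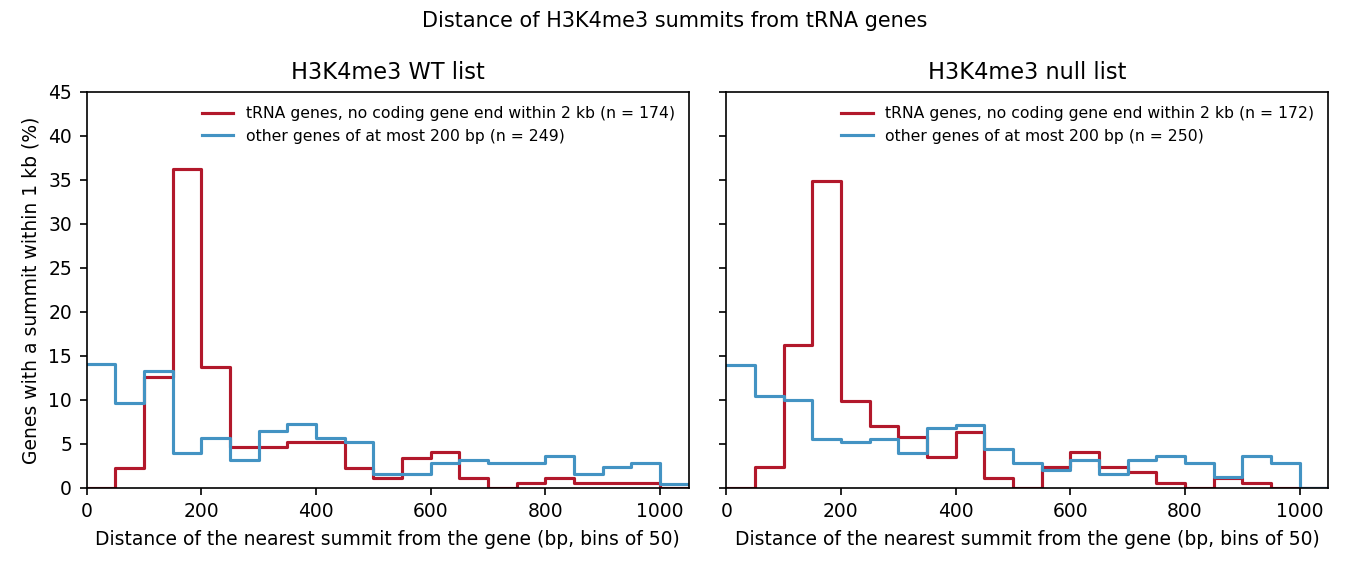
Distance from the gene to its nearest H3K4me3 summit (bp, bins of 50, horizontal axis) as a share of the genes with a summit within 1 kb (%, vertical axis), for tRNA genes without a coding gene end within 2 kb and for other genes of at most 200 bp, in the wild-type list (left) and null list (right). The tRNA line is at 0 next to the gene and peaks between 150 and 200 bp, where the line of short genes is low.

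In all, 251 different wild-type and 266 null H3K4me3 summits lay within 1 kb of a tRNA gene, 1.07% and 1.10% of their lists. They reached 146 and 145 of the 267 loci. Their scores were ordinary for the lists: the wild-type median was 25.7 against 26.5 for the whole list, with a range from 4.63 to 65.7, and the null median was 25.6 against 24.6, from 3.56 to 75.3.

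The highest wild-type scores were spread over several chromosomes. Each score given here for a gene is the highest within 1 kb, which need not be that of its nearest summit. The glutamate gene n-TEttc4, inside Elf1 and 400 bp from an end of Wbp4, a splicing factor gene, had 65.7 in wild-type and 68.3 in null cells and was the one gene among the top 10 of both lists. The arginine gene n-TRcct1, 858 bp from Fmc1, followed with 64.1 and 59.1, and n-TStga3, 541 bp from the nearer end of Ctnna3, with 63.7 and 39.4. Some high scores were far from the ends of coding genes. The glutamate gene n-TEttc6, 15395 bp from Nufip1, had 59.8 and 50.6, but its nearest summits had only 5.86 (wild-type) and 12.99 (null). The genes n-TKctt10 and n-TAtgc9 share a summit and lie inside Trim7, 7745 and 8291 bp from its nearer end. They had 59.8 and 48.1, in each case at the nearest summit. On chromosome 1, n-TGtcc2 and n-TLcag3 shared summits with scores of 59.3 and 56.8, 8236 and 8853 bp from Fcgr4. These were the nearest summits of n-TGtcc2, but the nearest wild-type summit of n-TLcag3 had 6.27. The proline genes n-TPagg2 and n-TPcgg2, between Mpzl1 and Rcsd1, shared 52.2 and 46.1. In null cells the highest scores were 75.3 at n-TIaat5, n-TSaga4 and n-TTagt8 (39.5 in wild-type), all within 1380 bp of Ctc1, and 74.0 at n-TCgca55 and n-TCgca54 near Arl5c (56.1 in wild-type). A wide gap was seen at n-TEctc12, 596 bp from Acp6, with 25.4 in wild-type and 71.8 in null cells. Scores of different lists depend on their depth and controls, so such gaps are not measured changes.

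Between genotypes the H3K4me3 lists named almost the same tRNA genes. Of the 403 genes, 226 were in both lists, 10 in wild-type only, 5 in null only and 162 in neither. Thus 95.8% of the wild-type genes were in the null list and 97.8% of the null genes in the wild-type list. Wild-type only made up 2.48% of tRNA genes against 1.09% of all other genes, and null only 1.24% against 0.937%. Among short genes these shares were 0.426% and 0.449%. Where both lists had a summit, the nearest of each lay a median of 76.5 bp apart, and 97 of 226 pairs (42.9%) lay within 50 bp, while 96 lay over 200 bp apart. The counts in 1 list only depend on the window: with 500 bp they were 22 wild-type only and 18 null only, and with 2 kb they were 6 and 0.

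Most genes in 1 list only had a summit of the other list not far outside the window. Of the 10 wild-type-only genes, 6 had a null summit within 2 kb, and so did all 5 null-only genes in the wild-type list. The median score was 11.6 (7.53 to 53.1) for the wild-type-only and 7.02 (5.08 to 10.3) for the null-only genes, against medians of 33.3 and 34.9 in the wild-type and null lists for genes in both. The highest, n-TCgca51 with 53.1 in wild-type, lies 28 bp from the nearer end of Lasp1. The null list had a summit of 39.5 at 1043 bp, just past the window. For the isoleucine gene n-TIaat15 (12.3 in wild-type) the nearest null summit was 14556 bp away, farther than for the other 9. The methionine gene n-TMcat2 and the lysine gene n-TKttt23 shared a wild-type summit of 8.45 with the nearest null summits at 3920 and 3090 bp. The null-only genes were n-TRtct3 (10.3), n-TSgct8 (9.82), n-TMcat5 (7.02), n-TPcgg1 (5.89) and n-TQctg10 (5.08).

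The tRNA genes are gathered in clusters, here runs of at least 5 genes with neighbours at most 50 kb apart. The 14 clusters held 260 of the 403 genes. H3K4me3 was found at 57.7% of clustered genes and at 60.1% of the other 143 in wild-type cells, but single clusters ranged from none to all. All 18 genes of the chromosome 11 cluster at 69037003 to 69125248 had H3K4me3 in both lists. Its span also holds Aurkb, a mitotic kinase, Vamp2, of synaptic vesicles, the clock gene Per1 and the Notch target Hes7. The 8 genes of the cluster around Trim7 on chromosome 11 (48818542 to 48857055) and the 7 on chromosome 14 (51063883 to 51090718) were likewise all listed in both.

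The 4 clusters on chromosome 13, in the region that also carries histone genes, held 101 genes. From the lowest coordinate up, H3K4me3 was found in wild-type cells at 20 of 24, 20 of 32, 8 of 9 and 29 of 36 genes, and in null cells at 20, 20, 7 and 29. The second of them, at 21848022 to 22050767, spans H2ac11, H2ac12, H2bc11, H2bc12 and H4c9. On chromosome 1 (171033942 to 171111515), around the Fc receptor gene Fcgr3, 16 of 25 genes were in the wild-type list and 13 in the null list. On chromosome 3 (96322074 to 96501518), rich in asparagine and histidine genes, 8 of 25 were listed in both. In the MBD list named WT, 18 summits fell in the 179.4 kb of this cluster and 17 in the 88.2 kb of the chromosome 11 cluster where all 18 genes had H3K4me3.

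In 2 clusters there was no H3K4me3 at all. The largest cluster, on chromosome 6 at 48133937 to 48363603, holds 48 cysteine genes and no coding gene in 229.7 kb, and 0 of the 48 had H3K4me3, Smchd1, H3K27me3 or Ctcf in any list. In 48 genes a count of 0 allows a share of up to 6.25%. How reads matching several of these cysteine genes were counted is not known, so an unlisted gene need not lack the mark. MBD summits were near 4 of the cluster's genes in both lists, and 12 (named WT) and 10 (named D1) fell in its span. The chromosome X cluster at 136357602 to 136430436 holds 8 alanine genes, 4 with the anticodon CGC and 4 with TGC, and none had a summit of any list within 1 kb. On chromosome X as a whole 1 of 17 tRNA genes had H3K4me3 in both genotypes. Without the chromosome 6 cluster, 236 of 355 tRNA genes (66.5%) had H3K4me3 in wild-type cells.

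**Figure D3:**
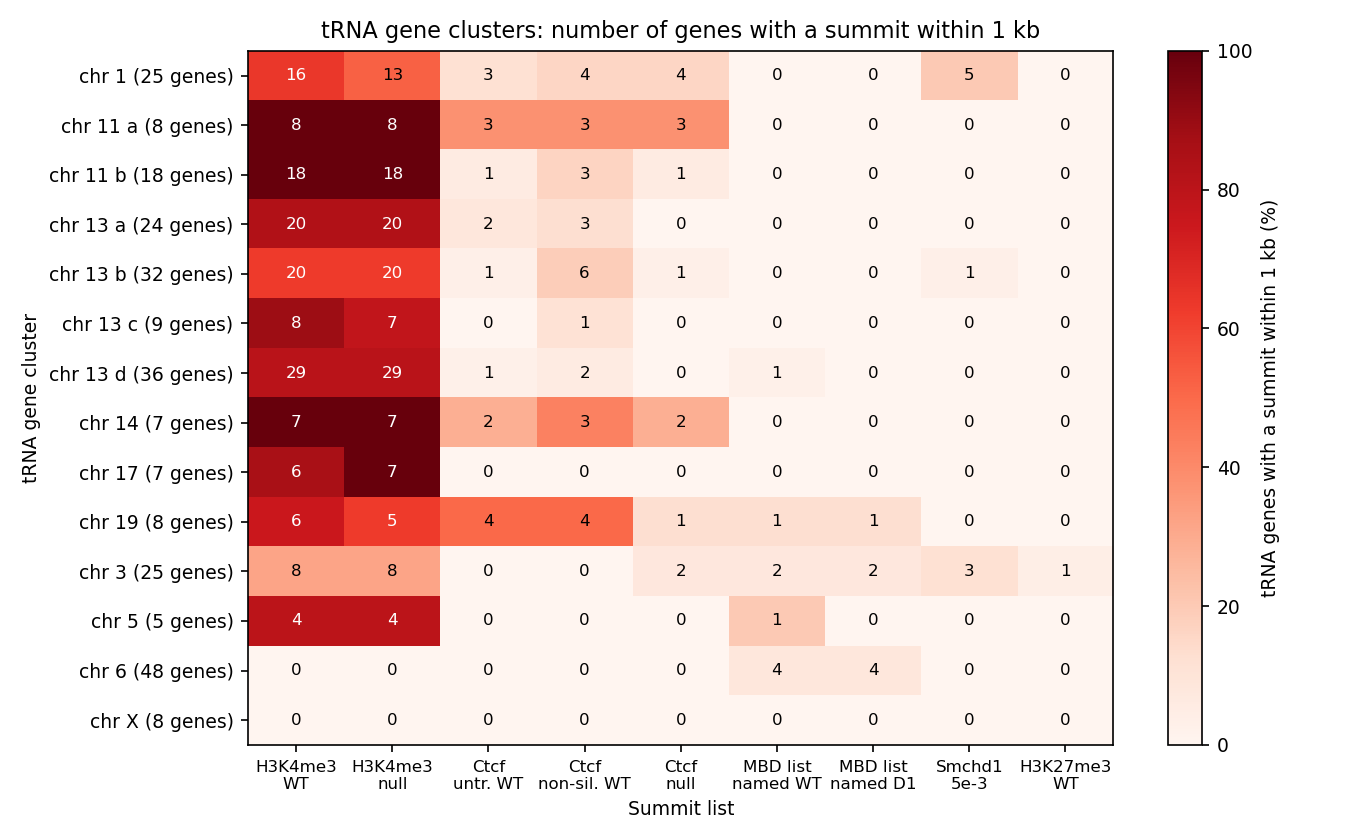
The 14 tRNA gene clusters (rows, with their number of genes, letters in order along a chromosome) against 9 of the 11 lists (columns). Numbers are genes with a summit within 1 kb and the colour is their share of the cluster (%). Both H3K4me3 columns are dark for most clusters, pale for chromosome 3 (8 of 25) and empty for chromosome 6 (0 of 48) and chromosome X (0 of 8).

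By amino acid, each of the 20 had at least 1 gene with H3K4me3 in each genotype. The share in wild-type cells was 87.5% for tryptophan (7 of 8 genes), 20 of 24 for arginine, 14 of 17 for threonine, 13 of 16 for isoleucine and 20 of 25 for leucine. Alanine had 17 of 33 and histidine 5 of 11. The intervals of these amino acids overlap, with few genes each, so their order is not resolved. Cysteine was lowest, with 4 of 57 in wild-type and 3 in null cells. Outside the chromosome 6 cluster it had 4 of 9, so the cluster holds most of the unlisted cysteine genes.

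**Figure D4:**
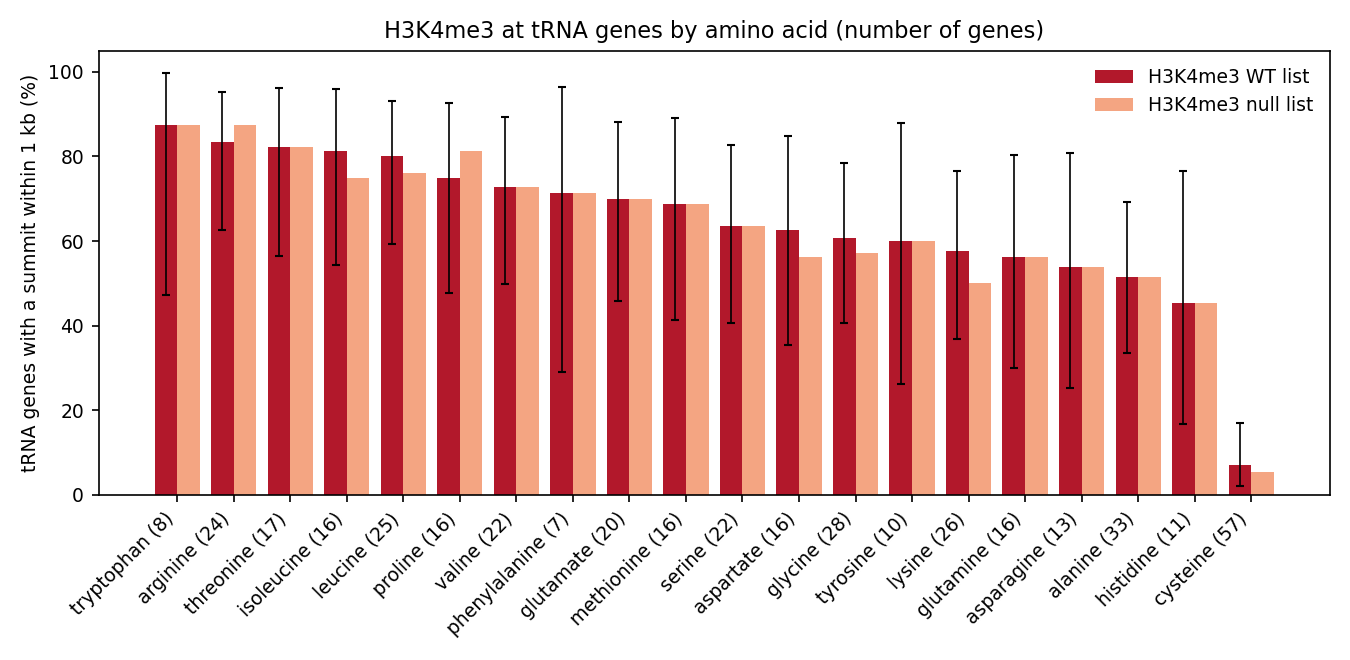
Share of tRNA genes with an H3K4me3 summit within 1 kb (%, vertical axis) by amino acid, with the number of genes in brackets, in the wild-type list (dark, with exact 95% intervals) and the null list (light). Cysteine, at 4 of 57 genes in wild-type cells, is the lowest, and the intervals of the others overlap.

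Within an amino acid the anticodons could differ. Of the alanine genes, 12 of 13 with AGC had H3K4me3 in wild-type cells, 3 of 9 with CGC and 2 of 11 with TGC. The chromosome X cluster accounts for 4 unlisted genes of each of the latter. Of the 48 anticodons, 46 had at least 1 listed gene in wild-type and 45 in null cells. The 2 with none in either list, histidine ATG and serine GGA, have 1 gene each.

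Ctcf was listed at fewer tRNA genes than H3K4me3. A Ctcf summit lay within 1 kb of 31 tRNA genes (7.69%) in the untransduced list, 51 (12.7%) in the non-silencing list and 30 (7.44%) in the null list. Of all other genes the shares were 10.5%, 19.8% and 13.8%, and of short genes 1.62%, 3.08% and 2.11%. The tRNA shares were thus 4.76, 4.12 and 3.53 times those of short genes. These counts rest on 24, 44 and 23 different summits, of which 0 lay inside a tRNA gene. The median distances were 423, 446 and 361.5 bp, farther out than for H3K4me3.

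Ctcf lists of the same genotype also differed. In 22 genes all 3 lists had Ctcf, 18 were in the non-silencing list alone, and 348 were in none. Both wild-type lists shared 29 genes. In the untransduced list only were 2 (0.496%, against 0.864% of all other and 0.292% of short genes). In the non-silencing list only were 22 (5.46%, against 10.2% and 1.75%). Untransduced wild-type and null cells shared 24. Here 7 were in wild-type only (1.74%, against 2.79% and 0.584%) and 6 in null only (1.49%, against 6.07% and 1.08%). Non-silencing wild-type and null cells shared 26. Of the rest, 25 were in wild-type only (6.20%, against 8.08% and 1.44%) and 4 in null only (0.993%, against 2.08% and 0.471%). These balances moved with list length. With equal numbers of the highest summits from each list, the wild-type-only and null-only counts were 12 and 3 with the untransduced list and 9 and 7 with the non-silencing list.

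Of the 10 genes with the highest scores among those with Ctcf in wild-type only, 5 had it in both wild-type lists. The tyrosine gene n-TYgta7, 9124 bp from Abt1, had 9.86 (untransduced) and 18.8 (non-silencing), and n-TMcat13, 7092 bp from Gpx6, had 10.5 and 13.4. In the chromosome 19 cluster next to Osbp, n-TRtct1, n-TVtac1 and n-TVtac2 share summits of 9.75 and 12.2, and 4 of 8 genes there had Ctcf in each wild-type list against 1 in the null list. The other 5 were in the non-silencing list alone: n-TLaag8 (17.4), n-TCgca55 (14.55), n-TLtag3 (10.9), n-TMcat8 (10.8) and n-TKctt18 (8.83). For n-TLaag8, summits of the null (17.7) and untransduced (12.5) lists lay just past the window, at 1009 and 1021 bp. For n-TLtag3 they lay at 1402 bp (null, 15.9) and 1424 bp (untransduced, 10.5). The nearest null summits of n-TCgca55, n-TMcat8 and n-TKctt18 were 43350, 53782 and 12632 bp away. In the null list alone were n-TKctt15 (6.70) and n-TNgtt10 (4.47), both on chromosome 3.

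Among genes with Ctcf in all 3 lists, n-TPagg2 had a Ctcf summit 23, 42 and 6 bp from the gene, with scores of 11.3, 23.2 and 20.3. At n-TRcct1 the summits lay 769, 808 and 809 bp away in the Fmc1 window printed above, with 9.75, 15.4 and 9.31. They were closer to the start of Fmc1, at 89, 50 and 49 bp. At n-TLaag4 beside Polr3e they lay at 120917658 (non-silencing, 10.3) and 120917641 (null, 7.20), between the tRNA gene and the start of Polr3e, with none in untransduced cells. n-TLaag4 was chosen for its sequence.

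Ctcf was more frequent at tRNA genes with H3K4me3, and MBD at those without. Of the 226 tRNA genes with H3K4me3 in both genotypes, 47 (20.8%) had Ctcf in at least 1 list and 4 (1.77%) had MBD in at least 1 list. Of the 162 with no H3K4me3, 8 (4.94%) had Ctcf and 24 (14.8%) had MBD. Other short genes showed the same direction: with H3K4me3, 18.6% of 269 had Ctcf and 10.8% MBD, and without it, 2.84% of 4186 had Ctcf and 18.3% MBD. Position moved with the mark as well. The median distance to a coding gene end was 6647.5 bp for genes with H3K4me3 in both genotypes and 38744 bp for those in neither, or 15099.5 bp without the chromosome 6 cluster. Its part in these differences was not tested. In all, 130 tRNA genes (32.3%) had no summit of any list within 1 kb.

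**Figure D5:**
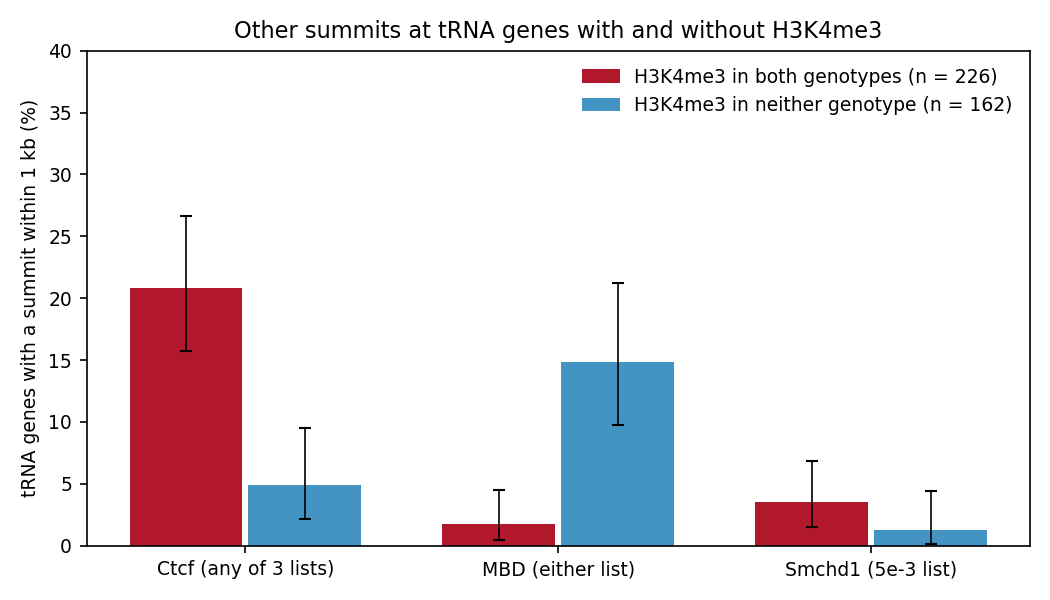
Share of tRNA genes (%, vertical axis, with exact 95% intervals) with a Ctcf, MBD or Smchd1 summit within 1 kb, for the 226 genes with H3K4me3 in both genotypes and the 162 in neither. Ctcf is higher with H3K4me3 (20.8% against 4.94%) and MBD higher without it (1.77% against 14.8%).

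Methylated DNA was rarely listed at tRNA genes. In the MBD list named WT 29 genes (7.20%) had a summit and in the list named D1 24 (5.96%). Of all other genes 53% and 49.2% did, and of short genes 17.4% and 14.4%, so the tRNA shares were 0.414 and 0.413 times those of short genes. For comparison, in the list named WT 34.4% of miRNA, 14.7% of snRNA and 8.31% of snoRNA genes had a summit. Both lists shared 24 genes, and 5 (1.24%) were in the list named WT only, against 4.3% of all other and 3.41% of short genes. In the list named D1 only there were 0, against 0.452% and 0.449%. With equal numbers of the highest summits the counts of 5 and 0 became 3 and 3. Unlike H3K4me3, MBD summits could lie on the gene itself, with 9 of 30 (named WT) and 8 of 25 (named D1) inside a tRNA gene. The 29 genes lay in 29 different loci. MBD capture depends on the number of methylated CpGs in a fragment, and CpG content of the tRNA genes was not analysed here beyond the windows printed.

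The genes with the highest MBD scores lay far from coding gene ends and lacked H3K4me3 in both lists. The valine gene n-TVaac1, inside Ubr4 and 49847 bp from its nearer end, had 57.3 (named WT) and 47.0 (named D1). The aspartate gene n-TDgtc10, 561804 bp from the next coding gene end (Tns3), had 48.3 and 42.0. The asparagine gene n-TNgtt2, 452527 bp from Cdh9, had 43.4 and 30.9. The serine gene n-TSgct1, 28452 bp from Enah, had 38.9 and 34.0. From the chromosome 6 cluster came n-TCgca12 (38.7 and 28.5) and n-TCgca50 (37.4 and 35.6). Among genes with MBD but no H3K4me3, the median distance to a coding gene end was 44309 bp. Ctcf and MBD met at n-TVaac1 and n-THgtg10, the 2 genes with Ctcf in untransduced wild-type and null cells but not in the non-silencing list. Their Ctcf scores were 6.36 and 6.70 at n-TVaac1 and 7.98 and 6.68 at n-THgtg10, whose MBD summits, with 10.9 and 9.25, lay inside the tRNA gene.

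Smchd1 was listed at few tRNA genes. At the threshold of 5e-4 there were 3 genes (0.744%), against 0.521% of all other genes and 0.0673% of short genes. At 5e-3 there were 10 (2.48%, interval 1.20 to 4.52), against 1.42% and 0.247%. The 10 genes rest on 5 summits, so the interval is too narrow. The share was 10.0 times that of short genes, but with a window of 500 bp there were 6 genes.

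Of these 5 summits, 2 lay inside a tRNA gene. One was at chr9:104408702, inside n-TEttc8 (chr9:104408667-104408738), a glutamate gene 70945 bp from the nearest coding gene end, with a score of 4.70 and in both Smchd1 lists. Its nearest H3K4me3 summits had scores of 9.20 (wild-type) and 24.1 (null). The other was at chr13:22050750, inside the serine gene n-TSgct5 (chr13:22050686-22050767), with 6.63 in the 5e-3 list. A Ctcf summit of the non-silencing list lay 362 bp from that gene, with 7.73.

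The chromosome 1 cluster held 2 of the other 3 Smchd1 summits. One, at 171082028 with a score of 6.25 in both Smchd1 lists, was near n-TLcag8 and n-TGgcc14, which had no other summit. The other, at 171064593 with 4.57, was near n-TEctc5, n-TGtcc1 and n-TDgtc3, which lie inside Fcgr3, 486 to 1680 bp from its nearer end. Ctcf summits stood next to it, at 171064612 in the untransduced list (21.6) and at 171064620 in the non-silencing (16.7) and null (23.0) lists, and the H3K4me3 summit nearest to n-TGtcc1 lay at 171064577 in both genotypes. On chromosome 3 the summit at 96500226 (3.65) was near n-TKctt16, n-THgtg8 and n-TGtcc7, which also had H3K4me3, with 48.4 (wild-type) and 43.1 (null) at n-THgtg8. Of the 10 genes, which share 5 Smchd1 summits, 8 had H3K4me3 in both genotypes and 2 in neither. Of all 403 tRNA genes, 226 had it in both and 162 in neither.

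H3K27me3 was almost absent from the lists at tRNA genes. The wild-type list reached 1 gene (0.248%, against 0.654% of all other and 0.112% of short genes) and the null list 0, which allows up to 0.744% (against 0.133% of all other genes). That gene was n-TVcac10 in the chromosome 3 cluster, with 4.38, MBD scores of 8.41 (named WT) and 14.7 (named D1) and no H3K4me3. The H3K27me3 lists are short, with 732 and 77 summits, so little could be detected.

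The genes that make and use tRNAs carried H3K4me3 almost without exception, here counted within 2 kb of either gene end. All 26 genes of RNA polymerase III and its factors were in both lists, among them the subunit Polr3a, the TFIIIC subunit Gtf3c1, the TFIIIB subunits Brf1 and Bdp1 and the repressor Maf1. So were all 20 cytosolic aminoacyl-tRNA synthetases, which charge tRNAs, and 18 of 19 tRNA maturation genes, with only the RNase P subunit Rpp40 unlisted. Of all protein-coding genes, 58.3% (wild-type) and 58.0% (null) were listed. All 6 genes on a short list of other RNA polymerase III transcripts had it too. These were Rn7sk, a regulator of transcription elongation, and Rmrp and Rpph1, the RNAs of RNase MRP and RNase P. The others were the Y RNAs Rny1 and Rny3 and the vault RNA Vaultrc5. The 69 5S rRNA genes were not on that list, and within 1 kb the wild-type list reached 1 of them and the null list 0. Smchd1 summits of the 5e-3 list were near 1 gene of the polymerase list, Gtf3c5 (3.16), and 1 synthetase, Rars (3.49).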

How the data were processed

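ChIP-seq of Smchd1, Ctcf, H3K4me3 and H3K27me3 used formaldehyde-crosslinked, sonicated chromatin, and MBD-seq used captured methylated DNA, per the labels' protocols. Base calling with CASAVA 1.4, peak calling with MACS2 (version 2) and the build mm10, which is GRCm38, come from the submitters' processing notes. No source used here names the aligner or says how reads with several matches were handled. The deposited lists hold summits of 1 bp with a score on a −log10 scale, either of p-values or of q-values (not stated). The authors pooled a group's libraries for each list, per the labels, so depth and replicate spread are unknown.

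Summits on assembled chromosomes were counted within 1 kb of each tRNA gene with pandas 2.3.3 and numpy 2.4.6 (Python 3.11.15), intervals were computed with scipy 1.17.1 and plots with matplotlib 3.10.9. Gene positions came from the RefSeq table of GRCm38.p6. No test was made. Intervals are exact 95% binomial (Clopper-Pearson), and a count of 0 allows 3 counts of the total. Named genes are those with Smchd1 or H3K27me3, up to 10 with Ctcf in 1 genotype only, the 10 highest H3K4me3 scores per genotype, up to 10 per genotype with H3K4me3 in that genotype only, the 5 highest per MBD list, and up to 10 H3K4me3 genes with no coding gene end within 2 kb. Some of these are not printed, and n-TLaag4, n-TRtcg5, n-THgtg7 and n-THgtg10 were added after their values were seen. The planned search for box motifs and CpGs could be made only where tRNA genes reach into promoter sequences. On simulated summits, 8060 of 8060 window counts were equal to those of a slow direct search. The members and gene lists were chosen with earlier results of these data known. Other windows, scores, list lengths and cluster gaps were tried.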

Additional observations from a re-analysis of the deposited data

How the results depend on the processing

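Of 78 values recomputed, 50 stayed within 1.5 times. Keeping only summits above each list's median score gave 150 tRNA genes for wild-type H3K4me3, 0 for Smchd1 at 5e-4, 0 for wild-type H3K27me3, 32 for non-silencing Ctcf, 16 for null Ctcf, and 13 for each MBD list. A window of 500 bp gave 6 genes for Smchd1 at 5e-3, Ctcf counts of 20 (untransduced), 29 (non-silencing) and 18 (null), and one-list counts of 22 (H3K4me3 wild-type only), 18 (null only), 15 (non-silencing Ctcf against null) and 3 (MBD named WT). A window of 2 kb gave 3 genes for wild-type H3K27me3, 58 and 46 for the MBD lists named WT and D1, and one-list counts of 6 (H3K4me3 wild-type only), 0 (null only), 11 (untransduced Ctcf against null) and 12 (MBD named WT). With equal numbers of top summits, untransduced Ctcf against null gave 12 and 3, non-silencing against null 9 and 7, and the MBD lists 3 and 3. A wider window or a longer list reaches more genes by construction. No paired analysis was possible because each list pools its group's libraries, which also prevented leaving out a replicate. Depth per library is unknown, and reads were not used here.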
